A study of Mus musculus with 10 samples.

Results

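The RNA-seq libraries of this series carry a letter, A, B or C, within each treatment. The comparison described here is that of the 2 replicate C libraries with the 2 replicate B libraries, 4 of the 10 samples in the series, chosen by the letter in their labels. One library of each letter came from cells given MB-3 and the other from cells given DMSO, and treatment was kept as a block so that only the difference between letters remained. The 2 replicate A libraries did not enter this fit and served only to show where A fell between B and C. All 6 RNA-seq libraries were made from TNGA cells, a mouse embryonic stem (ES) cell line that carries a GFP reporter at one Nanog allele, grown in serum and LIF. The cells were treated for 48 h with 100 μM MB-3, an inhibitor of the histone acetyltransferase Kat2a, or with the solvent alone, and DMSO stood at 0.1% in every culture. The H3K9ac libraries and their inputs carry no such letters and were not analysed here. The labels do not say whether a letter marks a culture, a passage, a day of harvest or a sequencing batch, and these cannot be told apart. The spread between these libraries may therefore be in part technical. P-values and standard errors (SE) rest on a spread shared by all genes, not on that of the gene they stand beside. The depth was 51137896 counts in DMSO B, 46863700 in DMSO C, 44985772 in MB-3 B and 42270312 in MB-3 C, with 48144367 in DMSO A and 49334434 in MB-3 A.

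Cultures of mouse ES cells in serum and LIF are known to be mixed. LIF acts through Stat3 to sustain self-renewal, whereas serum carries lipids and growth factors that act on the actin cytoskeleton and, through it, on the serum response factor and on YAP and its TEAD partners. A minority of cells in such cultures is known to express genes of the primitive streak, such as T (Brachyury), while Pou5f1 and Sox2 are still present. Keratins 8 and 18 are the paired intermediate filament proteins of simple epithelia, transgelin (Tagln) binds actin in smooth muscle and stressed cells, S100a6 is a calcium-binding protein of motile cells, and Gbp2 is a guanylate-binding GTPase induced by interferon.

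The labelled cell type was checked first, and all 6 libraries had high levels of the ES cell factors. Pou5f1 lay between 650 and 717 CPM (counts scaled to a common library size), Sox2 between 436 and 476 CPM, Nanog between 243 and 274 CPM, Esrrb between 639 and 699 CPM and Zfp42 between 471 and 526 CPM. None of these, nor Klf4, differed between C and B by the test used throughout, edgeR's quasi-likelihood F-test, Benjamini-Hochberg adjusted. Their log2 fold changes of C against B ran from -0.13 (SE 0.06) for Pou5f1, adjusted p = 0.201, to -0.003 (SE 0.06) for Nanog, adjusted p = 0.991. Kat2a, the enzyme that MB-3 inhibits, had a log2 fold change of -0.06 (SE 0.06) and its relative Kat2b one of -0.04 (SE 0.07). Neither passed the test.

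The 4 markers were lowest in B, intermediate in A and highest in C under both treatments. Krt8 (chr15:101996698-102004482, minus strand) stood at 35.4 CPM in DMSO B, 62.7 in DMSO A and 122 in DMSO C, and at 17.2, 27.7 and 49.6 CPM in the MB-3 libraries of the same letters. The C libraries did not overlap with the B libraries, since MB-3 C lay above DMSO B. The log2 fold change of C against B was 1.67 (SE 0.07), or 3.17-fold, with an adjusted p of 8.98e-113 (7.4e-113 to 7.15e-08 over the alternatives that kept the treatment block). Tagln (chr9:45929619-45936058, minus strand) had 19.3, 37.2 and 79.9 CPM in DMSO B, A and C and 9.24, 14.5 and 27.7 CPM in MB-3 B, A and C. Its log2 fold change was 1.85 (SE 0.08) and the adjusted p 4.03e-108, and here too both C libraries were above both B libraries. S100a6 (chr3:90612882-90624181, plus strand) had 24.1, 36.7 and 63.6 CPM in DMSO B, A and C and 11.9, 16.7 and 28.8 CPM with MB-3 (log2 fold change 1.34, SE 0.08). Gbp2 (chr3:142620602-142638008, plus strand) had 16.4, 31.9 and 59.0 CPM in DMSO and 8.04, 11.5 and 17.5 CPM with MB-3 (log2 fold change 1.54, SE 0.09). For Gbp2 the lowest C library (17.5 CPM) was close to the highest B library (16.4 CPM). Krt8, Tagln and Gbp2 each overlap another gene on the opposite strand, and without a stated strand setting the reads of the 2 genes cannot be told apart. The same holds for other genes named here, among them Pou5f1, Thbs1, Evx1, Axin2, Jun, Atf5, Col4a1, Col5a1, Rmrp and CT010467.1. Of the 31-base words in Tagln transcripts, 62.2% also occur in Gm48529 or Pcsk7. Pcsk7, a gene that shares sequence with Tagln on the other strand, had 11.6 to 12.7 CPM (log2 fold change -0.05, SE 0.10) and did not pass the test. Of the 31-base words in Krt8 transcripts, 36% also occur in other genes, chiefly the pseudogene Krt8-ps, which moved with it (log2 fold change 1.67, SE 0.14).

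**Figure D1:**
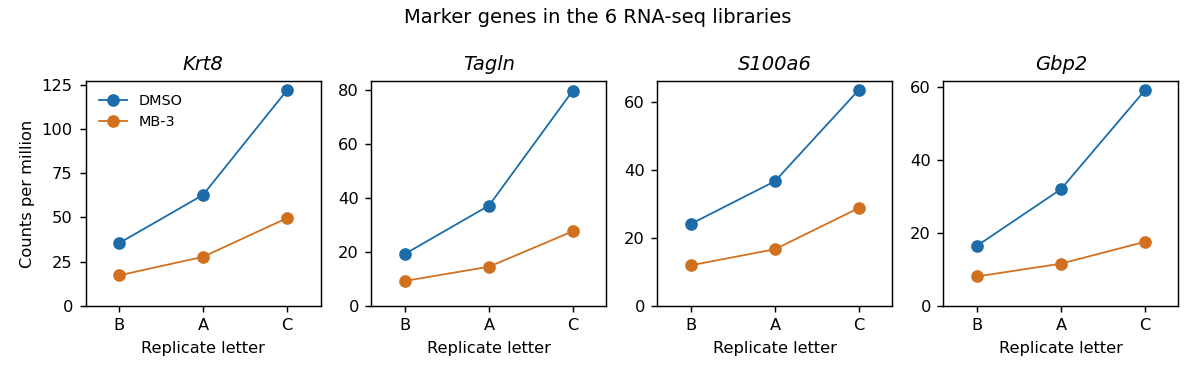
CPM (vertical axis, linear, from 0) of Krt8, Tagln, S100a6 and Gbp2 in each of the 6 RNA-seq libraries, ordered by letter as B, A and C (horizontal axis), with DMSO in blue and MB-3 in orange. Each point is 1 library and the lines only join libraries of a treatment. In all 8 series the level climbs from B through A to C, and each MB-3 point lies below the DMSO point of the same letter.

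The promoter windows of the markers are shown because these genes moved together. RefSeq windows (GRCm38.p6) were matched for Krt8, S100a6 and Gbp2, not for Tagln, and Gbp2b, the neighbour of Gbp2 on chromosome 3, is added as a further gene of its family. Each line gives the 250 bases before the RefSeq start of transcription, 5′ to 3′ on the strand of the gene, at chr15:102004343-102004592 for Krt8, chr3:90612644-90612893 for S100a6, chr3:142620413-142620662 for Gbp2 and chr3:142594597-142594846 for Gbp2b. The gene coordinates given above are from GENCODE, whose starts differ. For Krt8, S100a6 and Gbp2 they reach into these windows. Capitals mark letters that match, on either strand, the interferon-stimulated response element (ISRE, GAAANNGAAA), the GAS element (TTCNNNGAA), the TEAD motif (GGAATG), the AP-1 motif (TGANTCA) or the CArG box of the serum response factor.
Krt8: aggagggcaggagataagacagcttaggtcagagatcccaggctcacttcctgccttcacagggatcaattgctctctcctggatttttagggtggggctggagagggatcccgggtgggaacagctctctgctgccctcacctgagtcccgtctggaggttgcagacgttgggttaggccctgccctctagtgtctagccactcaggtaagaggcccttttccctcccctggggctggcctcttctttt
S100a6: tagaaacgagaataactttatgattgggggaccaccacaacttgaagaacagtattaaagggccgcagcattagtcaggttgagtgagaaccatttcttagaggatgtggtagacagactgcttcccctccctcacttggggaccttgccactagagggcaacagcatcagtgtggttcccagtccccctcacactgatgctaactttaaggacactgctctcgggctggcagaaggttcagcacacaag
Gbp2: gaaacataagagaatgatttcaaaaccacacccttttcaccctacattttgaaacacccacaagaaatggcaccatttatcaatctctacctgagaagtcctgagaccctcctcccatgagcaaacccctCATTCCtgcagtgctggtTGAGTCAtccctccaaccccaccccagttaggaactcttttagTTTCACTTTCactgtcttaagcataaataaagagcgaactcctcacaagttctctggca
Gbp2b: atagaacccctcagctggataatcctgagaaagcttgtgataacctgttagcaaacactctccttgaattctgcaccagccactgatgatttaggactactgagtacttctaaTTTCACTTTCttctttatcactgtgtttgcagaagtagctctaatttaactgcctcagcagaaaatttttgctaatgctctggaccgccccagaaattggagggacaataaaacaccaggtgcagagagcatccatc
The Gbp2 window holds, from left to right, TEAD letters, AP-1 letters and an ISRE that starts 59 bases before the RefSeq start. That ISRE (chr3:142620604-142620613) lies inside the GENCODE coordinates of Gbp2. The Gbp2b window holds an ISRE that starts 137 bases before the RefSeq start. None of the 5 motifs' letters is in the Krt8 or S100a6 window. ISRE letters are in 2.98% of all 32851 windows, GAS letters in 7.02%, TEAD letters in 12.6%, AP-1 letters in 6.75% and the CArG box in 1.47%. Among the 14922 windows matched to genes tested, the shares were 2.49%, 5.78%, 11%, 4.4% and 1.19% in the same order. Among the 64 windows of the named genes that were higher in C (53 genes matched), the counts were 6 windows for the ISRE (9.38%), 7 for TEAD (10.9%), 5 for AP-1 (7.81%) and 1 each for the GAS element and the CArG box (1.56%). The 6 ISRE windows of the named genes belonged to Gbp2, Gbp2b, Gbp3, Cxcl10, Vegfa and Sycp1, a set that includes members named from the interferon list. Among the 179 windows of all called genes at least 2-fold higher in C (125 genes matched), the shares were 6.15% for the ISRE, 16.2% for TEAD, 9.5% for AP-1, 3.91% for the GAS element and 2.79% for the CArG box. These are matches of letters, not sites shown to be used.

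Between C and B, 1222 of 20027 genes (6.1%) passed an adjusted p of 0.05 and are called here. Of these, 810 were higher in C (4.04% of the genes tested) and 412 were lower (2.06%). A change of at least 2-fold was seen for 177 of the higher genes (0.884% of the genes tested) and for 32 of the lower ones (0.16%). Single libraries were left out of the fit that also held the A libraries, in which 158 genes were at least 2-fold higher and 16 at least 2-fold lower. The count of 16 became 7 without MB-3 C, 10 without MB-3 B, 15 without DMSO B and 48 without DMSO C. The count of 158 became 63 without DMSO B, 81 without DMSO C, 216 without MB-3 B and 243 without MB-3 C. DESeq2, on the 4 libraries, gave 55 genes at least 2-fold higher and 0 lower. Most of the 177 were rare transcripts: 149 had a mean under 5 CPM over the 4 libraries, and 166 were protein-coding. The call rests on the treatment block and on a spread shared by all genes. Without the treatment term edgeR called 0 genes (1797 at an unadjusted p under 0.05), and DESeq2 with the block called 185. With the A libraries in the fit there were 1131 calls, and with 1 library then left out there were 325 calls without DMSO B, 608 without DMSO C, 1167 without MB-3 B and 1285 without MB-3 C. Calls also moved with transcript length. Among the fifth of genes with the shortest exons in sum (56 to 1022 bases), 0.576% were higher in C and 4.98% lower, against 7.72% and 0.601% in the fifth with the longest. The median log2 fold change went from -0.08 to 0.05 across the same bins, and the part of length in the calls was not tested.

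The 2 treatments share no library in this comparison, so each can be read beside the other. In the DMSO libraries alone, 153 genes were at least 2-fold higher in C than in B (0.764% of the genes tested) and 0 were as much lower (0.0%), on a scale of log2(CPM + 0.5). In the MB-3 libraries alone, 32 were at least 2-fold higher (0.16%) and 27 at least 2-fold lower (0.135%). Of the 153 genes higher in the DMSO pair, 27 (17.6%) were also past 2-fold in the MB-3 pair, and 0 were past 2-fold the other way. Read in the other direction, these 27 were 84.4% of the 32 genes higher in the MB-3 pair. These counts depend on the pseudocount: with 0.1 in place of 0.5 CPM, 407 genes were at least 2-fold higher and 94 lower in the DMSO pair, and 221 higher and 145 lower in the MB-3 pair. The 86 genes then higher in both were 21.1% of the 407 and 38.9% of the 221. Over the 810 higher genes the median log2 ratio of C to B was 0.61 in DMSO and 0.35 in MB-3. Each treatment has 1 library per letter, so that this difference was not tested. The 27 genes that were lower in the MB-3 pair included 0 past 2-fold in the DMSO pair, where their median log2 ratio was -0.28.

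**Figure D2:**
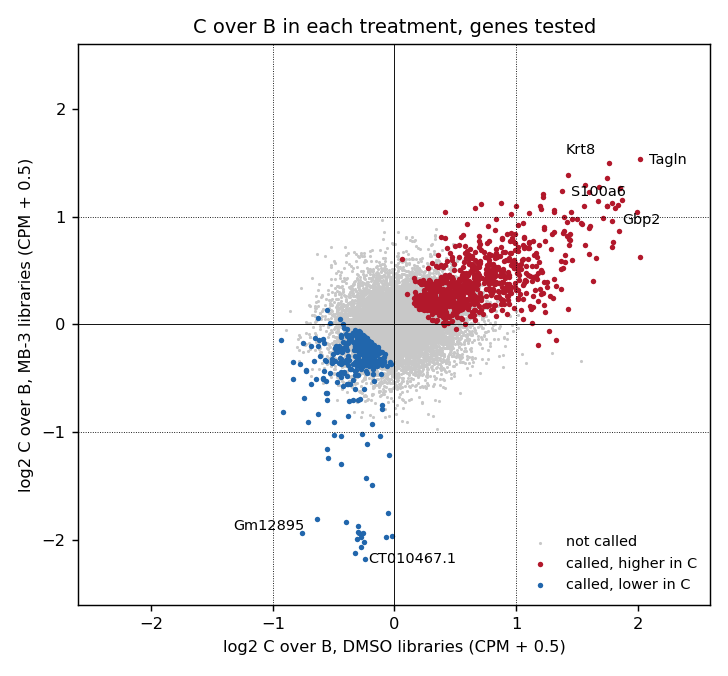
log2 ratio of the C to the B library in the DMSO pair (horizontal axis) against that in the MB-3 pair (vertical axis), both on log2(CPM + 0.5), for the 20027 genes tested. Grey points were not called, red points were called higher in C and blue points called lower, and dotted lines mark 2-fold; 27 genes lie past 2-fold in both pairs at the upper right, and at the lower centre genes such as CT010467.1 are low in MB-3 C but change little in DMSO.

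The A libraries fell between B and C for most called genes. With 0 set at B and 1 at C on the log2(CPM + 0.5) scale, the median position of A over the genes higher in C was 0.53 in DMSO and 0.51 in MB-3, beside 0.62 and 0.51 over all genes tested. A lay strictly between B and C for 712 of these 810 genes in DMSO (87.9%), for 566 in MB-3 (69.9%) and for 516 in both (63.7%). Over all genes tested the shares were 36.7%, 33.8% and 14.0%. A wide gap between B and C leaves more room for A to fall inside it, so these shares are set side by side with no test. Among the 177 genes raised at least 2-fold, 136 had A between B and C under both treatments. Among the 32 lowered at least 2-fold, A lay between in 16 genes in DMSO and in 9 with MB-3, and with MB-3 the median position was -0.22, which is beyond B.

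**Figure D3:**
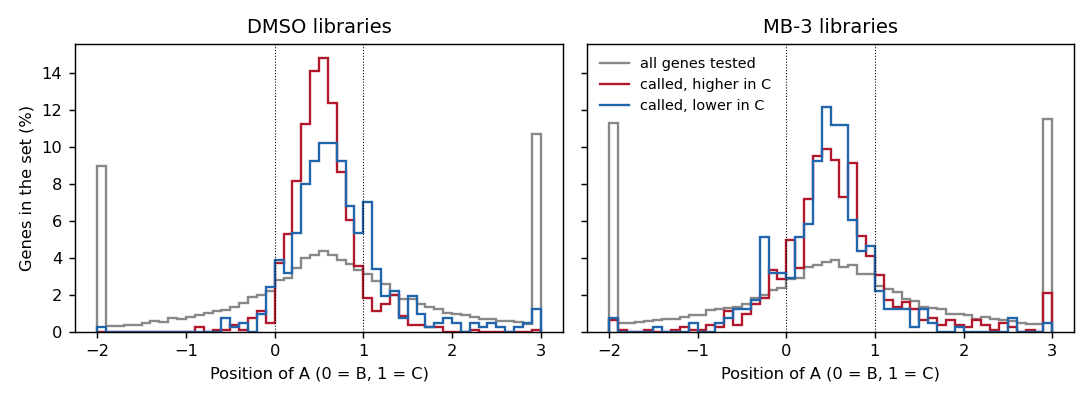
Position of the A library between B (0) and C (1) on log2(CPM + 0.5) (horizontal axis) and the percentage of genes in the set (vertical axis), for DMSO (left) and MB-3 (right) libraries; the outermost bins collect all values beyond -2 and 3. Genes called higher in C (red) and lower in C (blue) peak near the middle of the interval, with medians of 0.53 and 0.66 in DMSO and 0.51 and 0.47 in MB-3, whereas all genes tested (grey) are spread widely.

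The keratins led the simple epithelium list, of which 10 of 14 tested genes rose in C and 0 fell (median log2 fold change 0.52, against -0.001 over all genes tested). Over all genes tested 4.04% rose and 2.06% fell, and these shares stand beside the counts of every list that follows. Krt18, the partner of Krt8, had 41.8, 77.2 and 124 CPM in DMSO B, A and C and 28.5, 38.3 and 61.6 CPM with MB-3 (log2 fold change 1.35, SE 0.07). Krt19, another keratin of simple epithelia, had 10.7, 20.8 and 37.1 CPM in DMSO and 4.51, 6.19 and 12.4 CPM with MB-3 (log2 fold change 1.66, SE 0.10). The keratin gene Krt7 (0.92, SE 0.32) and Pkp2 (0.02, SE 0.07), also on this list, did not pass the test. Among genes of cell junctions, desmoplakin (Dsp) rose by 0.64 on the log2 scale (SE 0.08), the claudin genes Cldn7 by 0.40 (SE 0.09), Cldn6 by 0.39 (SE 0.07) and Cldn4 by 0.19 (SE 0.06), and E-cadherin (Cdh1) by 0.19 (SE 0.06), while Epcam (0.05, SE 0.06) and the plakoglobin gene Jup (0.08, SE 0.06) did not pass the test. Sprr2a1, a cornified envelope gene, was the largest rise above 5 CPM (log2 fold change 1.91, SE 0.16), but 96.9% of its 31-base words also occur in other genes, chiefly Sprr2a2, and its reads cannot be assigned to a single copy. Of the 12 largest rises, 2 were genes of growth factor and hormone signaling: Csf1, the macrophage colony-stimulating factor, had 3.77, 8.56 and 14.7 CPM in DMSO B, A and C and 1.80, 2.61 and 4.45 CPM with MB-3 (log2 fold change 1.72, SE 0.14), and the growth hormone receptor gene Ghr had 4.88, 9.43 and 15.8 CPM in DMSO B, A and C and 3.14, 5.55 and 8.05 CPM with MB-3 (log2 fold change 1.55, SE 0.13).

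Genes of actin filaments and contraction rose together. Of 18 tested members of that list, 15 were higher in C, 0 were lower, and all 18 lay higher in C than in B in both treatments (median log2 fold change 0.53). Calponin 1 (Cnn1), which binds actin in smooth muscle, had 3.57, 5.30 and 11.4 CPM in DMSO B, A and C and 2.57, 3.50 and 5.36 CPM with MB-3 (log2 fold change 1.41, SE 0.14). Caldesmon (Cald1) had 44.6, 76.6 and 118 CPM in DMSO and 33.4, 42.5 and 61.4 CPM with MB-3 (log2 fold change 1.15, SE 0.07). Tropomyosin 1 (Tpm1) rose by 0.77 (SE 0.06), zyxin (Zyx) by 0.81 (SE 0.08) and filamin A (Flna), a broadly used actin crosslinker, by 0.34 (SE 0.06) on the log2 scale. Actg2, the enteric smooth muscle actin, was too rare to test, at 1 to 5 counts per library. Synpo2l, which encodes an actin-associated protein of striated muscle, was among the 12 largest rises (log2 fold change 1.57, SE 0.15).

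Reported targets of YAP and TEAD showed the same direction, with 12 of 16 tested members higher in C and 0 lower (median log2 fold change 0.56). Ccn1 (Cyr61), a secreted matricellular protein, had 22.9, 37.9 and 77.9 CPM in DMSO B, A and C and 15.4, 24.9 and 33.6 CPM with MB-3 (log2 fold change 1.47, SE 0.08). Igfbp3, which binds insulin-like growth factors, had 36, 61.8 and 105 CPM in DMSO and 22.2, 29.0 and 43.1 CPM with MB-3 (log2 fold change 1.27, SE 0.07). Ccn2 rose by only 0.37 on the log2 scale (SE 0.07), and Tead1 itself had a log2 fold change of 0.16 (SE 0.06) and did not pass the test. Thbs1, the matrix protein thrombospondin 1, had 13.9, 26.6 and 42 CPM in DMSO and 8.02, 13.7 and 20.4 CPM with MB-3 (log2 fold change 1.49, SE 0.09). In its list of matrix and mesenchymal genes 8 of 14 rose and 2 fell, the falls being Tgfbi (log2 fold change -0.57, SE 0.16) and Lgals3 (-0.35, SE 0.08). Of the immediate early genes 5 of 11 tested rose and 0 fell. These were Fosb, Atf3, Fos, Jun and Srf, whereas Ier2 (log2 fold change 0.004, SE 0.06) and Egr1 (0.10, SE 0.08) did not pass the test. Fos and Fosb did not keep the order of letters with MB-3, where Fos stood at 2.96 CPM in B, 4.78 in A and 3.31 in C, and Fosb at 0.342, 1.13 and 0.886 CPM. Among S100 and annexin genes 6 of 15 rose and 0 fell, led by S100a6, Anxa3 (log2 fold change 1.27, SE 0.10) and Anxa1 (1.06, SE 0.16).

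Interferon-induced genes were divided. Of 26 tested, 12 rose, 0 fell and 14 did not pass the test (median log2 fold change 0.52). The median was 0.51 in the DMSO pair and 0.18 in the MB-3 pair, and 5 of the 26 were lower in C in both. The genes that rose were Gbp2, Gbp3, Gbp4, Gbp7, Irgm1, Irgm2 and Iigp1, GTPases of the guanylate-binding and immunity-related families, with Irf1, Isg15, Psmb8, Cxcl10 and Oasl2. Gbp2b, named for its rise and not on that list, shares 4.15% of its 31-base words with Gbp2. It had 14.2, 30.0 and 53.3 CPM in DMSO B, A and C and 6.56, 9.40 and 15.2 CPM with MB-3 (log2 fold change 1.62, SE 0.09). Gbp3 (log2 fold change 1.31, SE 0.21), Iigp1 (1.55, SE 0.33) and Irgm1 (0.86, SE 0.12) rose with it, as did the chemokine gene Cxcl10 (1.79, SE 0.52) at levels under 1 CPM. The transcription factor Irf1 rose by 0.32 on the log2 scale (SE 0.07), with 43.1, 49.2 and 60.9 CPM in DMSO B, A and C and 46.8, 44.6 and 51.6 CPM with MB-3, where A lay below B. Stat2 (0.06, SE 0.08) and Irf9 (-0.10, SE 0.12), which act in type I interferon signaling, did not pass the test. Isg15, a ubiquitin-like protein, rose in DMSO (from 0.837 to 2.43 CPM) and stood at 0.296 CPM in MB-3 B and 0.303 CPM in MB-3 C. Several antiviral genes were near the floor: Ifit3 had 0 to 7 counts per library, Rsad2 2 to 12 and Irf7 1 to 10, and none of these was tested. Ifitm1, the member with the highest level per kilobase, had 474, 396 and 396 CPM in DMSO B, A and C and 495, 437 and 471 CPM with MB-3, and the summed level of the list was 954, 866 and 957 CPM in DMSO B, A and C.

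Primitive streak and mesendoderm genes had the highest median of the lists other than the 4 markers, 1.10 on the log2 scale. On the log2(CPM + 0.5) scale of the single pairs, the order held in DMSO, where the median was 0.97. It did not hold in the MB-3 pair, where the median was 0.30. That was below the contractile (0.39), YAP target (0.35), simple epithelium (0.34) and Atf4 (0.31) lists and close to the trophoblast list (0.30). The offset of 0.5 CPM shrinks log2 ratios at low levels, and several mesendoderm genes lay under 1 CPM in MB-3 B. Evx1 had 0.0683 CPM in MB-3 B and 0.2798 CPM in MB-3 C, for a log2 ratio of 0.46 on this scale. The part of the offset in the lost rank was not tested. Of 12 tested, 7 rose, 1 fell and 4 did not pass. T had 9.05, 16.5 and 32.5 CPM in DMSO B, A and C and 3.58, 4.68 and 7.44 CPM with MB-3 (log2 fold change 1.55, SE 0.11). The letters kept their order within each treatment, but the groups overlapped, because MB-3 C lay below DMSO B. Wnt3, the ligand that starts streak formation, went from 1.14 to 4.89 CPM between B and C in DMSO and from 0.660 to 1.80 CPM with MB-3 (log2 fold change 1.86, SE 0.23). Fgf8 rose by 1.81 (SE 0.25), Evx1 by 1.6 (SE 0.52), the Wnt target Sp5 by 1.14 (SE 0.19), Mixl1 by 1.06 (SE 0.28) and Eomes by 0.88 (SE 0.14) on the log2 scale. Lefty1, an inhibitor of Nodal, fell by 0.35 (SE 0.06), and Nodal itself had a log2 fold change of 0.06 (SE 0.07). Foxa2 (5 to 20 counts per library), Mesp1 (1 to 7) and Cer1 (0 to 3), which mark later endoderm and mesoderm, were too rare to test. Axin2, a feedback inhibitor of Wnt signaling, rose by 0.49 (SE 0.13), and with T and Sp5 it made up the 3 of 10 Wnt response genes that rose.

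**Figure D4:**
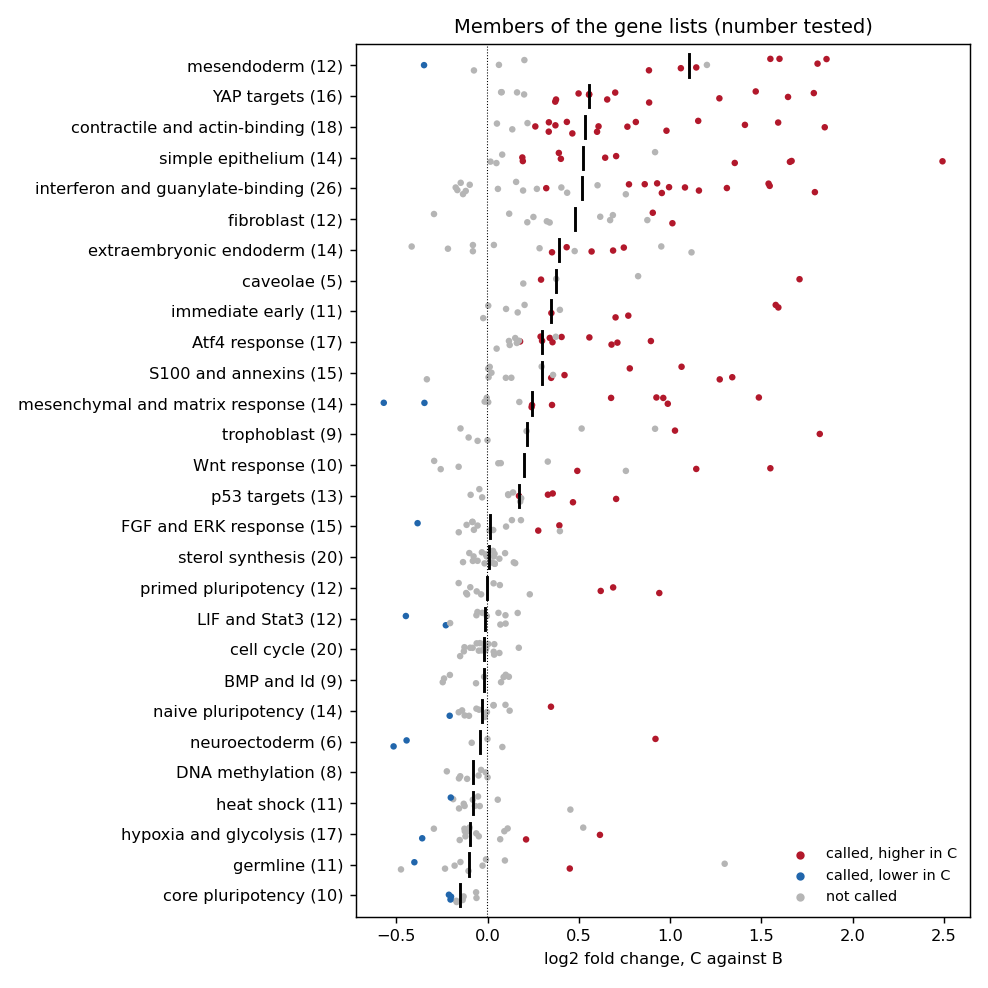
log2 fold change of C against B (horizontal axis) for each tested member of 28 gene lists (rows, number of tested members in brackets), with called genes in red (higher in C) or blue (lower) and others in grey; black ticks are list medians and the dotted line is the median over all genes tested. The mesendoderm, YAP target, contractile, simple epithelium and interferon lists have medians above 0.5. The naive and primed pluripotency, cell cycle and sterol lists lie near 0, and the core pluripotency list has the lowest median, -0.15.

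Lists that mark other cell types were read to see what else the libraries held. Over all genes tested 4.04% rose and 2.06% fell. Of the fibroblast and feeder cell list, 2 of 12 tested genes rose (Col5a1, log2 fold change 1.01, SE 0.12, and Col1a2, 0.91, SE 0.28) and 0 fell. The median log2 fold change of this list was 0.48, with 0.42 in the DMSO pair and 0.14 in the MB-3 pair, and 8 of the 12 lay higher in C in both treatments. Col1a1 (0.88, SE 0.36), Dcn (0.69, SE 0.49), Col6a1 (0.67, SE 0.42) and Col3a1 (0.62, SE 0.37) did not pass the test, at levels of 0.219 to 1.24 CPM. The summed level was 30.6, 39.2 and 46.6 CPM in DMSO B, A and C and 26.9, 28.6 and 31.6 CPM with MB-3, with Mmp2 as its most abundant gene, and the defining genes Lum (0 to 6 counts per library), Postn (0 to 3) and Prrx1 (0 to 5) were at or near 0. In the extraembryonic endoderm list 5 of 14 rose and 0 fell (median log2 fold change 0.39), and 8 of the 14 lay higher in C in both treatments. Those that rose were Col4a1, Col4a2, Lamb1, Sparc and Dab2. The receptor gene Pdgfra (0.95, SE 0.39) and the transcription factor gene Foxq1 (1.12, SE 0.50) did not pass the test at levels under 1 CPM. Among the transcription factors that define this lineage, Gata4 lay between 0.623 and 1.02 CPM, Gata6 between 0.326 and 0.540 CPM, neither passing the test, and Sox17 had 1 to 6 counts per library. The summed level of this list was 200, 241 and 289 CPM in DMSO B, A and C and 188, 200 and 229 CPM with MB-3, with Sparc highest per kilobase. In the trophoblast list Cdx2 (log2 fold change 1.82, SE 0.28) and Hand1 (1.03, SE 0.35) rose, both also genes of the streak and its mesoderm, at levels under 3 CPM, whereas Elf5 had 0 to 3 and Plac1 0 to 5 counts per library. The trophoblast sum was 88.0, 91.9 and 87.9 CPM in DMSO and 98.3, 101 and 103 CPM with MB-3, most of it from Tfap2c. Among 6 neuroectoderm genes Nes rose (0.92, SE 0.08) and Sox1 (-0.51, SE 0.16) and Pax6 (-0.44, SE 0.08) fell, and the summed level was 153, 152 and 170 CPM in DMSO B, A and C and 151, 155 and 158 CPM with MB-3, with Tubb3 as the most abundant gene. In bulk libraries, more cells of a type and more RNA per cell cannot be told apart, and the part of these marker levels in the other results was not tested.

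The Atf4 response, which serves amino acid supply under stress, had 10 of 17 genes higher and 0 lower (median log2 fold change 0.30, with 0.21 in the DMSO pair and 0.31 in the MB-3 pair), among them Vldlr, Chac1, Atf5 and Trib3, and all 17 lay higher in C in both treatments. With MB-3, A lay above C for Vldlr (8.32 against 7.44 CPM), Chac1 (18.6 against 16.2 CPM) and Trib3 (55.5 against 46.8 CPM), but not for Atf5. Of 13 p53 targets 5 rose and 0 fell, led by Perp, which is also on the epithelial list, and Cdkn1a (0.47, SE 0.08). Fgf5, a gene of the primed state, rose by 0.94 (SE 0.13) on the log2 scale, one of 3 of 12 primed genes to do so. Of 14 naive genes Dppa3 rose (0.35, SE 0.09) and Nr0b1 fell (-0.21, SE 0.06), and of 10 core pluripotency genes 3 fell by small steps (Dppa2, -0.21, SE 0.07; Dppa5a, -0.20, SE 0.06; L1td1, -0.20, SE 0.06). The core pluripotency list had a median log2 fold change of -0.15, and 6 of its 10 genes lay lower in C in both treatments and 0 higher in both. Gbx2 (-0.45, SE 0.09) and Lifr (-0.23, SE 0.07) fell in the LIF and Stat3 list, where 10 of 12 did not pass the test. In the FGF and ERK list Dusp4 and Dusp5 rose, Spry4 fell and 12 of 15 did not pass. In the hypoxia list Vegfa and Slc2a3 rose, Bnip3 fell and 14 of 17 did not pass, and in the germline list Sycp1 rose, Hormad1 fell and 9 of 11 did not pass, beside 6.1% called over all genes. Cav1 and Cavin1 rose among 5 caveolar genes, and Hsp90aa1 was the 1 of 11 heat shock genes that fell. By edgeR, 0 of 20 cell cycle genes, 0 of 20 sterol synthesis genes, 0 of 9 BMP and Id genes and 0 of 8 DNA methylation genes passed the test, in lists so short that a share near the 6.1% of all genes would give few calls or none. At an unadjusted p under 0.05 there were 9 of these 57 genes by edgeR, 2 by DESeq2 and 8 by limma-voom, of which DESeq2 and limma-voom also called 0.

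The largest falls were not of this kind. The 12 named falls were CT010467.1, annotated as a ribosomal RNA gene, the pseudogenes Gm12895 and Gm12896, the miRNA entries Gm23935, Gm24245, Gm24270, Gm24187 and Mir6236, the antisense entry Gm15564, the unclassified entry AA474408, Rmrp, the RNA of RNase MRP, and Lars2, the mitochondrial leucyl-tRNA synthetase. CT010467.1 (chr17:39846353-39848827, minus strand) had 1691 CPM in DMSO B, 1189 in DMSO A and 1396 in DMSO C, and 3006 CPM in MB-3 B, 3934 in MB-3 A and 717 in MB-3 C. The MB-3 C library was thus the lowest of all and MB-3 A the highest, and A did not lie between B and C in either treatment. The log2 fold change of CT010467.1 was -1.17 (SE 0.06), but without MB-3 C it was -0.07. Its log2 ratio was -0.28 in the DMSO pair and -2.07 in the MB-3 pair, a gap that the shared spread behind this SE does not reflect. Lars2 followed the same course (194, 135 and 163 CPM in DMSO B, A and C, and 332, 428 and 86.3 CPM with MB-3). Its log2 fold change was -1.09 (SE 0.06), and -0.05 without MB-3 C. Without that library the 12 log2 fold changes lay between -0.75, for Gm12895, and 0.03, for Gm24270. Gm12895 and Gm12896 share 99.0% of their 31-base words with each other, and Gm23935, Gm24245 and Gm24270 share all of theirs, so that these are not independent genes. Of the 31-base words in CT010467.1, 70.4% also occur in Gm42418 or AY036118, and it overlaps another gene on its own strand too.

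Of the 32 genes lowered at least 2-fold, 27 were not protein-coding, and 8 of these were small nuclear RNA genes. The 5 protein-coding ones, named after their values were seen, were Lars2, the potassium channel gene Kcnk4, Irf5, the histone gene Hist2h3c2 and Gm10801. When only protein-coding genes were fitted, an alternative chosen after seeing the data, 605 rose, 267 fell and 4 of the falls reached 2-fold. Ribosomal and small nuclear RNAs normally lack a poly(A) tail, and the libraries were made from poly(A) RNA. Counts at CT010467.1 and Gm26917, a pair of genes with ribosomal RNA sequence, made up 0.236% of all counts in DMSO B, 0.200% in DMSO C, 0.374% in MB-3 B and 0.128% in MB-3 C, and 0.169% and 0.499% in DMSO A and MB-3 A. The part of poly(A) selection in these falls was not tested. Transcripts of the mitochondrial genome fell as well: 17 of 33 tested, including 11 of 13 protein-coding genes and both ribosomal RNAs, with 0 rises and a median log2 fold change of -0.32. Over all genes tested 2.06% fell. The ribosomal RNA mt-Rnr2 had 2187, 1993 and 1689 CPM in DMSO B, A and C and 2421, 2474 and 1477 CPM with MB-3 (log2 fold change -0.54, SE 0.06). The summed level of the 13 mitochondrial protein-coding genes went from 40557 to 37622 CPM between B and C in DMSO and from 42649 to 33655 CPM with MB-3. No nuclear chromosome stood apart, as the medians of their genes of at least 5 CPM lay between -0.025 and 0.007 on the log2 scale.

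**Figure D5:**
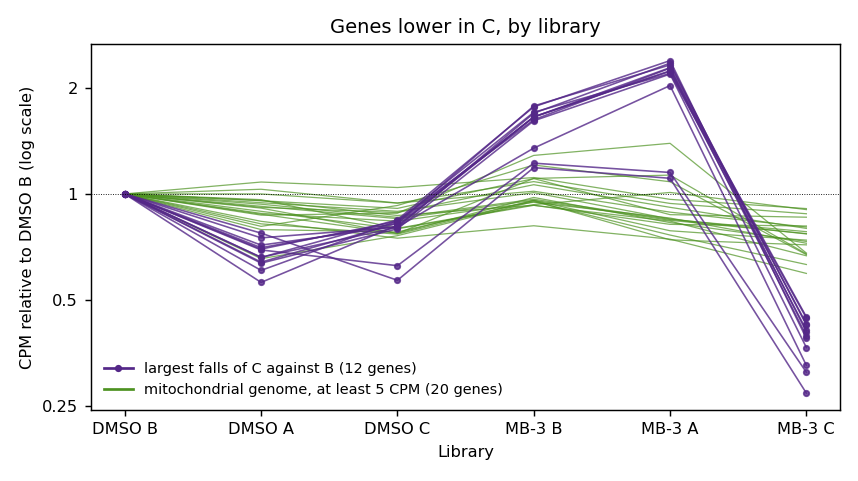
Level relative to DMSO B (vertical axis, log scale) in each of the 6 libraries (horizontal axis), for the 12 largest named falls (purple, points are libraries) and for 20 genes of the mitochondrial genome with a mean of at least 5 CPM (green). MB-3 C is the lowest library for all 12 purple genes, while MB-3 A lies above DMSO B for them.

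The same libraries also enter the comparison of MB-3 with DMSO, and for the markers the treatment difference can be read within each letter. Krt8 with MB-3 stood at 0.486 of its DMSO level in B, 0.441 in A and 0.407 in C, Tagln at 0.479, 0.390 and 0.347, S100a6 at 0.494, 0.454 and 0.453, and Gbp2 at 0.489, 0.361 and 0.297. Within letters all 4 markers were thus lower with MB-3 in 3 of 3 pairs. Over the 6 libraries the test of MB-3 against DMSO called 41 genes (0.205% of the genes tested) without the letter as a term and 1425 with it as a block, 644 higher (3.22%) and 781 lower (3.9%) with MB-3. In the blocked fit 10 of 12 mesendoderm genes were lower with MB-3 and 0 higher, and the counts were 10 lower and 0 higher of 18 contractile genes, 13 and 2 of 26 interferon genes, 7 and 0 of 14 simple epithelium genes, and 6 and 0 of 16 YAP targets. The C against B and the MB-3 against DMSO comparisons share the B and C libraries, so that no overlap between them was taken as a result.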

How the data were processed

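Per the paper's methods and the labels, the authors trimmed single-end reads from poly(A) libraries, aligned them to mm10 with Bowtie, counted exonic reads (GenomicAlignments) and deposited these counts, not normalized, by Ensembl gene, with 0 columns left unused here and 0 rows that name no gene. Tool versions, annotation release and strand setting are not given in the sources used here.

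Symbols and coordinates came from GENCODE M21 on the same assembly (30540 of 30677 identifiers). Differential expression was computed from the counts with edgeR 4.0.16 in R 4.3.3 (filterByExpr by treatment, TMM, glmQLFit and glmQLFTest, treatment and letter as terms, Benjamini-Hochberg adjustment), on 20027 genes and 4 libraries, which left 1 residual degree of freedom. The spread was estimated over all genes together. The prior degrees of freedom of the fit were infinite, so that a gene's own spread carried no weight. Standard errors of log2 fold changes had a median of 0.11. CPM were scaled to TMM-normalized library sizes.

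Deviations from the treatment means correlated between same-letter libraries (r = 0.37 for A, 0.56 for B and 0.40 for C, over 12066 genes), so the letters were taken to pair the samples. Libraries of a treatment differed by more than sampling noise (chi-square per gene 8.41 to 17.4).

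Named genes were the 4 markers, the 12 largest rises and 12 largest falls among called genes of at least 2-fold and 5 CPM that differed the same way in both treatments, up to 4 called genes per list, 6 pluripotency factors, Kat2a and Kat2b. Other members of the lists were named after their values were seen. The genes, lists and rule were chosen with earlier results of these data known. Alternatives were other normalizations and filters, DESeq2 1.42.0, limma-voom (limma 3.58.1), other terms, and each library left out in turn from the fit of all 6, where the lone library of a letter was assumed to vary like the others. Some members of the lists are not reported here by name.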

Additional observations from a re-analysis of the deposited data

How the results depend on the processing

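The directions of the called named genes held under every alternative run except that without MB-3 C, which turned 3 of the 12 largest falls. Fewer held their call: of the 92, 92 lost it without the treatment term, 48 of 87 with a value under DESeq2, 34 without DMSO B, 33 without DMSO C, 18 with upper-quartile factors, 16 without MB-3 C (beside the 3), 15 of 85 with a value at the 1 CPM minimum, 11 without MB-3 B and 6 of 80 with a value among protein-coding genes. Among the 92, 8 also lost their call with RLE size factors, 8 with limma-voom and 6 with all 6 libraries in the fit. The loss was 3 with no filter on low counts and 1 with the filter by letter. Upper-quartile factors gave 713 calls (500 higher in C, 213 lower), a minimum of 1 CPM 614 (454 and 160, with 116 past 2-fold), DESeq2 185 (146 and 39, with 55 past 2-fold) and the fit without the treatment term 0 in each class. Protein-coding genes alone gave 267 falls. With single libraries left out of the fit of all 6 (1131 calls), calls ran from 325 to 1285, rises from 227 to 880, falls from 98 to 405 and calls past 2-fold from 78 to 250. MB-3 against DMSO went from 41 calls to 1425 with the letter as a replicate block, and from 0 to 526 with single libraries left out. Restricted to genes of at least 5 CPM, 32.7% of those past 2-fold in DMSO were so in MB-3, and at a pseudocount of 0.1 CPM 24.0% of those past 2-fold in either direction in MB-3 were so in DMSO, against 45.8% at 0.5. A lay between B and C in DMSO for 88.0% of calls past 2-fold. With single libraries left out the log2 fold change ran from -2.46 to 0.000107 for Gm15564, -2.35 to 0.0295 for Gm24270, -2.29 to 0.00708 for Mir6236, -0.0629 to 0.0561 for Nanog, -0.132 to 0.0114 for Klf4, -0.0609 to 0.0297 for Esrrb, -0.113 to 0.0201 for Zfp42, -0.118 to 0.00592 for Kat2a and -0.173 to 0.0913 for Kat2b, and Nanog stood at 0.00041 with the 1 CPM minimum. The causes were not tested. No more than 2 libraries per letter and 1 per letter and treatment limit all of these values.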

Other observations

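Further genes, chosen after their values were seen, followed the order B, A, C in both treatments. Igf2, the imprinted growth factor gene, had 8.33, 15.7 and 21.4 CPM in DMSO B, A and C and 7.20, 11.8 and 15.4 CPM with MB-3 (log2 fold change 1.24). Sfn, the epithelial 14-3-3 protein stratifin, had 29.7, 41.6 and 81.6 CPM in DMSO and 22.1, 27.6 and 39.8 CPM with MB-3 (1.17). Flnc, the muscle filamin, had 11.7, 23.2 and 32.2 CPM in DMSO and 10.9, 17.4 and 19.6 CPM with MB-3 (1.17). In the opposite direction, Tcf15, a factor linked to the exit from the naive state, had 29.8, 22.4 and 19.3 CPM in DMSO B, A and C and 34.6, 28.6 and 28.1 CPM with MB-3 (log2 fold change -0.46), and the water channel gene Aqp3 had 23.8, 20.6 and 14.9 CPM in DMSO and 17.3, 15.6 and 13.5 CPM with MB-3 (-0.52). Of 79 ribosomal protein genes 13 were lower in C and 0 higher, with a median log2 fold change of -0.12. Over all genes tested 2.06% were lower in C. The share was 4.98% in the fifth with the shortest exons in sum and 5.87% in the fifth with the highest CPM. The part of length and level in the ribosomal protein count was not tested.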
